A study of Mus musculus with 4 samples.

Results

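The RNA that an antibody against N6-methyladenosine (m6A) left unbound was compared between brown preadipocytes of mice with a conditional knockout of the prostaglandin receptor EP3 and brown preadipocytes of control mice. The members were the array probes with no outlier flag whose unbound signal was well above background in at least 1 of the genotypes. They numbered 50826 of 60691 distinct probes, or 83.7%. The EP3 cKO mice (Myf5CreEP3F/F) combined Cre driven by Myf5 with floxed EP3 alleles, and the control mice (EP3F/F) had the floxed alleles alone. Each sample was a single pool from approximately 30 mice of 8 weeks. The controls carried no Cre, so an effect of Cre and an effect of EP3 loss cannot be told apart. The cells of both pools were sorted as lineage-negative cells positive for CD29, CD34 and Sca1. The labels give male sex for the bound fractions, and for the unbound fractions the field for sex repeats the name of the fraction.

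EP3, encoded by Ptger3, is a G protein-coupled receptor for prostaglandin E2 that typically lowers cyclic AMP. Myf5 is expressed in a progenitor lineage that gives rise to skeletal muscle and to much of the interscapular brown fat, and Cre driven by it recombines floxed alleles in that lineage. m6A is a methyl mark that a nuclear writer complex places on messenger RNA and that affects splicing, export, translation and decay. The antibody separates total RNA into a bound fraction rich in m6A (IP) and an unbound supernatant (Sup). The level of a transcript in Sup thus follows both its total amount and the share of its copies that escaped the antibody, and this fraction alone cannot tell them apart. In pooled cells, fewer cells of a type and less RNA per cell cannot be told apart either.

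The series holds 4 samples on 2 arrays, the IP and Sup fractions of each genotype, and both Sup samples were labelled with Cy3. Of the members, 48073 were well above background in Sup in both genotypes, 1845 in cKO only and 908 in control only. The share of spots well above background in Sup was 82.3% in cKO and 80.8% in control. The median processed signal of probes detected in both was 340 in cKO and 385 in control, and the level of a probe is given below as log2 relative to that median in its own sample. Each genotype had 1 array, so array and genotype cannot be told apart, and no test was possible. Precision is limited by there being 2 arrays. All counts below use rules of size.

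Levels in Sup were close in the EP3 cKO and control pools. Over the 48073 probes measured in both, 64.8% lay within 1.2-fold, 92.1% within 1.5-fold and 98.4% within 2-fold. The SD of the difference over probes was 0.36 (log2, cKO minus control) and its middle 50% ran between -0.17 and 0.20. Pearson's r between the levels was 0.990, taken over probes, which are not replicates.

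At a size rule of 2-fold, 557 members (1.10%) were higher in cKO and 461 (0.907%) were lower. These counts include 102 probes detected in cKO only and 125 detected in control only, each at least 2-fold above the floor of the other array. Among the probes measured in both genotypes the counts were 455 (0.946%) and 336 (0.699%). At 1.5-fold 2468 members (4.86%) were higher and 2144 (4.22%) lower. Of the 1018 members past 2-fold, 54.7% were higher in cKO. That split depended on the processing, with 28.1% higher when the signals were not scaled and 38.1% with scaling to ERCC spike-in spots. Without dye normalisation it was 63.7% in spot signal minus background and 73.4% with normexp. Leaving out the scaling moved the median difference of all probes to -0.16, and the ERCC spots moved it to -0.08. The size rule cut through a continuous tail. On the higher side 125 probes lay at a log2 difference of 1.0 to 1.1 and 158 at 0.9 to 1.0, and on the lower side 81 and 143 lay in the matching intervals. Differences of at least 4-fold were measured for 35 probes higher and 53 lower in cKO, and differences of at least 8-fold for 8 higher and 24 lower.

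Probes detected in 1 genotype only have a bound in place of a difference, since a signal that is not well above background sets only an upper limit. The floor, the lowest signal of a probe well above background, was 32.1 in cKO and 42.8 in control, or -3.41 and -3.17 on the log2 scale relative to the median. The cKO floor was the mean over 10 spots of the Gabrg1 probe, of which 5 were well above background. A floor lowered in this way makes the bounds of probes detected in control only larger. Among the 1845 probes detected in cKO only, the median bound was 1.22-fold and 1453 had a bound under 1.5-fold. Those 1453 include 136 with no bound above 1, their signal being at or under the floor of control or their own control signal. Among the 908 detected in control only, the median bound was 1.47-fold and 495 had a bound under 1.5-fold. Bounds of at least 2-fold made up 5.53% of the first set and 13.8% of the second. When a probe counted as detected only with all of its spots well above background, the 2-fold bounds numbered 102 in cKO only and 85 in control only, in place of 102 and 125. Bounds of at least 4-fold were found for 7 probes in cKO only and 17 in control only, and the largest was at least 13.8-fold in cKO only and at least 12.3-fold in control only. More probes were detected in cKO only than in control only. The cKO floor was the lower of the floors, but it rests on the Gabrg1 probe and does not describe the array as a whole.

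In the bound fraction these single-genotype probes did not all follow the same detection. Of the 1845 detected in cKO Sup only, 541 were well above background in IP in both genotypes, 176 in cKO IP only, 242 in control IP only and 886 in neither. Of the 908 detected in control Sup only, 232 were detected in IP in both genotypes, 26 in cKO IP only, 203 in control IP only and 447 in neither.

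The difference varied with the brightness of a probe. When the probes measured in both genotypes were sorted by their mean Sup level into 10 groups of equal size, the median difference lay between -0.04 and 0.05 in groups 1 to 9 and stood at 0.15 in group 10, the brightest. In that group 69.0% of probes were above 0, against 52.7% of all probes measured in both genotypes, and 58 were at least 2-fold higher in cKO and 7 lower. In the dimmest group 20 were higher and 35 lower. Without the dye normalisation of the scanner software the brightest group stood at 0.20, so the pattern was at least as large there. The IP difference of the probes of that group had a median of 0.40. For named genes whose value this pattern touches, the median of the 1001 probes nearest in brightness is given below as that of equally bright probes.

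Gene names were available for few members. The files pair 50 probes with an accession, of which 45 matched a gene symbol. Of these 45 genes 43 were members, 42 of them measured in both genotypes. The genes of the sorting antigens, Ptger3 and the m6A writers and erasers had no named probe, so neither the knockout nor the sort could be checked in these values. Of 55 marker genes in 8 cell type lists 2 were measured, Ppara of the brown fat list and Mbp, which marks myelinating glia, and the other 6 lists had 0 measured members. Of the 10 gene lists, those of PGE2 signalling (9 genes) and of the m6A machinery (17 genes) had 0 measured members. Of the 42 genes 24 lay above 0 and 18 below, with a median of 0.05, and 0 reached 2-fold. At 1.5-fold 1 was higher and 4 were lower, or 2.38% and 9.52% of the 42, beside a background of 4.32% and 3.60% among all probes measured in both genotypes. The genes are means over repeated spots and nearly all other probes have a single spot, so these shares are not like for like.

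Each named probe was spotted 10 times, and the spots give a technical spread within an array that holds no variation between animals or pools. The pooled SD of the difference between spots was 0.07 (log2) for the 30 repeated probes brighter than the median probe and 0.24 for the 16 dimmer ones. In 28 of the 42 genes the difference was at least 2 spot SDs from 0, and in 28 every usable spot lay on the same side. In 17 the spots of cKO and control did not overlap. The other 60641 probes, 99.9% of all, had a single spot each.

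Of the 3 genes of membrane proteins, Cav2 was furthest below 0. Cav2 encodes caveolin-2, which forms caveolae together with caveolin-1. Its Sup level averaged 1.70 in cKO, with spots between 1.57 and 1.80, and 2.31 in control, with spots between 2.19 and 2.49. The spots of the genotypes did not overlap, and the difference was -0.61 ± 0.06 (SD, n = 9 spots), or 1.53-fold lower in cKO. Bambi, whose product resembles a TGF-beta receptor but lacks kinase activity, had a level of 1.65 in cKO and 1.86 in control, a difference of -0.21 ± 0.03 (SD, n = 9 spots). Its spots reached 1.75 in cKO and began at 1.80 in control, so they lay apart although the difference was small. Lhfp, which encodes a tetraspan membrane protein, stood the other way at 3.74 in cKO and 3.34 in control, a difference of 0.40 ± 0.05 (SD, n = 10 spots).

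Genes of fat oxidation and related metabolism had 1 of 6 members above 0, beside 52.7% of all probes measured in both genotypes, and the differences of Gamt and Pex11a were small. Pex11a turned above 0 with normexp and with scaling to SPINKEIN spots. Ppara encodes the nuclear receptor that switches on fatty acid oxidation genes. Its Sup level averaged -3.07 in cKO, with spots between -3.45 and -2.60, and -2.34 in control, with spots between -2.90 and -1.98. The spots overlapped, the probe was close to the floor with 6 of 10 spots well above background in cKO and 10 of 10 in control, and the difference was -0.72 ± 0.26 (SD, n = 10 spots), or 1.65-fold lower. Cpt1a, whose product carries out the committed step of fatty acid entry into mitochondria, had a level of 0.95 in cKO and 1.33 in control, a difference of -0.37 ± 0.06 (SD, n = 10 spots) with no overlap of spots. Acaa2, a thiolase gene of mitochondrial beta-oxidation, differed by -0.16 ± 0.03 (SD, n = 7 spots). Gamt, which completes creatine synthesis, differed by -0.11 and Pex11a, a gene of peroxisome division, by -0.01, or by -0.14 relative to equally bright probes. Apoe, a lipoprotein gene, stood above 0 at 0.26 ± 0.02 (SD, n = 9 spots), with 7.36 in cKO and 7.10 in control. Equally bright probes had a median of 0.21, which left 0.05 for Apoe.

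The redox genes were at opposite sides. Gsta4 encodes a glutathione transferase that detoxifies 4-hydroxynonenal, a product of lipid peroxidation. It had the highest difference of the genes measured in both genotypes. Its level averaged 3.51 in cKO, with spots between 3.45 and 3.57, and 2.87 in control, with spots between 2.78 and 2.98. All 9 cKO spots lay above all control spots, and the difference was 0.64 ± 0.05 (SD, n = 9 spots), or 1.56-fold higher. Prdx2, a peroxiredoxin gene, stood at 7.02 in cKO and 7.09 in control, a difference of -0.06 ± 0.03 (SD, n = 10 spots). Its sign and size hung on the processing, with -0.27 under quantile normalisation, -0.26 relative to equally bright probes and -0.24 without scaling. The difference was 0.01 in spot signal minus background without dye normalisation and 0.12 with normexp.

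The immune genes measured in both genotypes were all above 0, 5 of 5, at 0.17 to 0.50, beside 52.7% of all probes above 0 and 69.0% in the brightest of the 10 groups, which holds H2-Q7 and H2-M2. Mzb1 and Il2 turned below 0 without scaling and with normexp. Gsdmd encodes gasdermin D, which forms the membrane pore of pyroptosis. Its level averaged 3.99 in cKO, with spots between 3.89 and 4.09, and 3.49 in control, with spots between 3.33 and 3.64. The spots did not overlap, and the difference was 0.50 ± 0.05 (SD, n = 9 spots), or 1.41-fold higher. H2-Q7, a non-classical major histocompatibility class I gene, stood at 6.55 in cKO and 6.15 in control, a difference of 0.40 ± 0.05 (SD, n = 10 spots), and H2-M2 at 5.28 and 5.10, a difference of 0.18 ± 0.05 (SD, n = 10 spots). Class I genes are close in sequence, so a probe for a single one may also bind its relatives. Equally bright probes had medians of 0.19 for H2-Q7 and 0.14 for H2-M2, which left 0.21 and 0.04. Mzb1, a chaperone gene of plasma and marginal zone B cells, and the T cell cytokine gene Il2 were dim, at -2.10 and -2.68 in cKO and at -2.28 and -2.86 in control. Their differences, 0.17 ± 0.34 (SD, n = 6 spots) and 0.18 ± 0.44 (SD, n = 10 spots), were smaller than the spread between spots.

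Genes often used as references were above 0 as well. Actb, the beta-actin gene, had a Sup level of 2.30 in cKO, with spots between 2.24 and 2.38, and 1.87 in control, with spots between 1.83 and 1.92. The difference was 0.44 ± 0.06 (SD, n = 10 spots), against a median of 0.03 for equally bright probes. Gpi1, a glycolytic isomerase gene, stood at 7.80 in cKO and 7.45 in control, a difference of 0.35 ± 0.03 (SD, n = 9 spots), and equally bright probes had a median of 0.22. Both genes stayed above 0 in the 12 alternative settings, the lowest values being 0.26 for Actb and 0.13 for Gpi1.

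Of the genes with nuclear, cell cycle or RNA roles, 4 were above 0 and 4 below, and 2 of those above 0, Nup50 and Taf1a, turned below 0 without scaling and with ERCC scaling. Rps4l, a gene named ribosomal protein S4-like, has a probe paired with a non-coding transcript record. Its level averaged 5.33 in cKO, with spots between 5.28 and 5.39, and 5.96 in control, with spots between 5.87 and 6.10. The spots did not overlap, and the difference was -0.63 ± 0.06 (SD, n = 9 spots), or 1.55-fold lower. Equally bright probes had a median of 0.16, so relative to them it stood at -0.79. Rps4l is close in sequence to the ribosomal gene Rps4x, and its probe may also bind that transcript. E2f1, a transcription factor gene of entry into S phase, stood at -1.03 in cKO and -0.70 in control, a difference of -0.33 ± 0.15 (SD, n = 10 spots) with overlapping spots. Alkbh4, a demethylase gene, differed by -0.24 ± 0.10 (SD, n = 9 spots) and Cep41, a centrosomal gene, by -0.13. Taf1a, a gene of the RNA polymerase I initiation factor, differed by 0.06 and the nuclear pore gene Nup50 by 0.04. The RNA-binding protein gene Carhsp1 differed by 0.20, or by 0.10 relative to equally bright probes. The kinase gene Trp53rka differed by 0.40 ± 0.15 (SD, n = 10 spots). It was dim, at -1.82 in cKO and -2.22 in control. With normexp, whose offset of 50 draws the differences of dim probes towards 0, the difference was 0.02. In the software's background-subtracted signals without dye normalisation the difference was 0.42.

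Of the endosome and autophagy genes, Atg3 was furthest below 0. Atg3 encodes the enzyme that attaches lipid to LC3 in autophagosome formation. Its level averaged -2.09 in cKO, with spots between -2.51 and -1.77, and -1.44 in control, with spots between -1.71 and -1.32. The spots did not overlap, and the difference was -0.65 ± 0.24 (SD, n = 8 spots), or 1.57-fold lower. Rab5a, the small GTPase of early endosomes, differed by -0.19 ± 0.04 (SD, n = 10 spots) and Uhrf1bp1l by -0.17 ± 0.06 (SD, n = 10 spots), or by -0.31 relative to equally bright probes. Tm9sf1, a gene of an endomembrane protein with 9 transmembrane segments, stood at 0.17 ± 0.05 (SD, n = 9 spots), where equally bright probes had a median of 0.11, and at -0.01 without scaling.

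Genes of neural and sensory cells measured in both genotypes ranged in level from Mbp, under the median probe, to Olfr166, at 2.44 in cKO and 2.32 in control. Of the 5 measured in both genotypes 4 lay above 0, beside 52.7% of all probes, and of those 4 Olfr166 and Olfr1307 turned below 0 without scaling. Mbp, which encodes a myelin protein, stood at -1.16 in cKO and -1.61 in control, a difference of 0.45 ± 0.19 (SD, n = 10 spots), with spots that overlapped. With normexp the difference of Mbp was 0.09, and in the software's background-subtracted signals without dye normalisation it was 0.41. The part of glial RNA in the other differences was not tested, as Mbp was its single measured marker. Lhx1, a homeobox gene, differed by 0.24 ± 0.10 (SD, n = 8 spots). The olfactory receptor genes Olfr166 and Olfr1307 differed by 0.12 and 0.01, and the granin gene Chgb by -0.17. Gabrg1, which encodes a subunit of the GABA-A receptor, was well above background in 5 of 10 spots in cKO and in 0 of 10 in control. Its mean cKO signal of 32.1 lay under the control floor of 42.8, so no fold is given. Tyr, the pigment enzyme gene, and the potassium channel gene Kcnn2 were well above background in 0 of 10 spots in either genotype and were not members.

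Among the other named genes, Anxa8, an annexin gene, stood at 1.08 in cKO and 1.52 in control, a difference of -0.43 ± 0.15 (SD, n = 8 spots) with no overlap of spots. Dnajc11, a mitochondrial chaperone gene, differed by -0.14. Hspb7, a small heat shock protein gene, differed by 0.23. Its difference was 0.00 with normexp and 0.21 in the software's background-subtracted signals without dye normalisation. Spats1 differed by 0.29 and the hyaluronidase gene Hyal3 by 0.13, or by -0.05 for Hyal3 without scaling. A pair of genes close to 0 is included in the counts and not shown singly.

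The 5 genes past 1.5-fold kept their direction in all 12 alternative settings, and each was short of 1.5-fold in 2 or 3 of them. With normexp and no dye normalisation Ppara stood at -0.24, Atg3 at -0.25, Rps4l at -0.44 and Cav2 at -0.49, short of 1.5-fold, while Gsta4 stood at 0.68. In spot signal minus background without dye normalisation Ppara stood at -0.48, Atg3 at -0.45 and Rps4l at -0.55. The scanner software's own background-subtracted signals differ from that setting. In them, without dye normalisation, Ppara stood at -0.68 and Atg3 at -0.64, both past 1.5-fold, and Rps4l at -0.55. Atg3 stood at -0.56 when outlier flags of either channel were applied, and Cav2 at -0.58 with scaling to SPINKEIN spots. Gsta4 stood at 0.46 without scaling and at 0.54 with ERCC scaling.

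The largest differences belonged to probes without a gene name, since the files do not pair them with genes, and the most extreme of those brighter than the median are given. Most of the array carries IDs of the manufacturer's series named ASMM10EP3A, ASMM10EP3B and ASMM10SM, where EP3 is part of a probe name and not the receptor. The lowest was ASMM10EP3A113972547, at -10.21, with a processed Sup signal of 764 in cKO and 1024148 in control. It was the brightest member in control Sup and the member of brightness rank 16087 in cKO Sup. The pixel medians of its spot were 220 in cKO and 165283 in control, and no spot on either array was saturated in Sup, a count of 0. Saturation in IP was not counted. In IP the same probe differed by -6.29. ASMM10EP3A100007943 followed at -4.11, with signals of 1299 in cKO and 25411 in control and an IP difference of -4.20.

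On the higher side ASMM10EP3A100171738 stood at 5.54, with a processed Sup signal of 5135 in cKO and 125 in control and an IP difference of 3.96. ASMM10EP3A116861214 stood at 3.85, with signals of 54583 in cKO and 4278 in control. All 4 probes had a single spot per array. In each the IP difference, read from that same spot, had the sign of the Sup difference. Without dye normalisation they differed by -9.93, -4.08, 5.55 and 3.99 in the order given.

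The named manufacturer's series were alike in the share of higher probes and unlike in the share of lower ones, a description with no test. Probes at least 2-fold lower in cKO made up 1.02% of the members of ASMM10EP3A, 0.464% of ASMM10EP3B and 0.399% of ASMM10SM. Probes at least 2-fold higher made up 1.08%, 1.22% and 1.01% in the same order. Medians of the difference were 0.01, 0.05 and 0.01, close to each other in all 3 series. Across 4 bands of array rows the median difference ran between 0.00 and 0.03, and the share at least 2-fold higher between 0.762% and 1.22%. Across 4 bands of array columns that share ran between 0.733% and 1.20%.

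The bound fraction of the same pools was read in the Cy5 channel of the same spots. The IP signals were not used by the rule, but came from the same RNA, arrays and spots, and the dye normalisation joins both channels. A fault of a spot that moves both channels and a difference in the RNA cannot be told apart. Over 43839 probes detected in all 4 samples the SD of the difference was 0.36 in Sup and 0.58 in IP, and the correlation between the fractions, over probes and as a description, was 0.514 by Pearson's r and 0.397 by Spearman's rho. Of these probes 1477 (3.37%) passed 2-fold on the higher side of cKO in IP, and 1979 (4.51%) on the lower side.

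Probes with a large Sup difference mostly differed the same way in IP. Of 429 probes at least 2-fold higher in Sup, 302 (70.4%) were also at least 2-fold higher in IP, 0 were at least 2-fold lower and 54 (12.6%) lay within 1.5-fold. Of 280 at least 2-fold lower in Sup, 192 (68.6%) were also at least 2-fold lower in IP, 1 was at least 2-fold higher and 38 (13.6%) lay within 1.5-fold. Of all 43839 probes 73.8% lay within 1.5-fold in IP. At 4-fold in Sup, 30 of 31 higher probes and 40 of 42 lower ones passed 2-fold the same way in IP. Probes within 1.5-fold in Sup, 40485 in number, included 752 (1.86%) that were past 2-fold in IP on the higher side and 1459 (3.60%) on the lower. Opposite differences of at least 1.5-fold in both fractions were measured for 38 probes higher in Sup and lower in IP and for 36 the other way.

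Among the named genes past 1.5-fold in Sup, the IP differences were unlike. Cav2 differed by -2.06 in IP, a larger difference than its -0.61 in Sup. Ppara and Atg3 differed by -0.98 and -0.71 in IP, beside -0.72 and -0.65 in Sup. Rps4l stood at 0.12 in IP and Gsta4 at -0.05, beside -0.63 and 0.64 in Sup. The brightness groups that hold them, 10 and 9, had median IP differences of 0.40 and 0.18, so both lay under those medians. Whether the fractions differ was not tested. Of the genes short of 1.5-fold, Lhfp, at 0.40 in Sup, stood at -0.71 in IP, and Trp53rka, also at 0.40 in Sup, at -0.85. The other genes at 0.40 to 0.50 in Sup stood in IP at 0.86 for Actb, 0.10 for Gsdmd, -0.12 for H2-Q7 and -0.27 for Mbp. With normexp the Sup difference of Trp53rka was 0.02, and in the software's background-subtracted signals without dye normalisation it was 0.42.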

How the data were processed

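Total RNA was split by an anti-m6A antibody and the Sup fraction labelled with Cy3, per the labels' protocols. Per the file headers, the scanner software was Agilent Feature Extraction 11.0.1.1 (named in the submitters' processing notes too). It gave the processed signal as a linear intensity, background-subtracted and dye-normalised within the array, so a Cy3 value also depends on the Cy5 channel. The linear Cy3 factor was 3.49 in cKO and 4.71 in control. The deposited files also hold pixel medians and background-subtracted signals (intensity) and flags of 0 or 1. Values in the authors' deposited table are on a log2 scale and equalled log2 of the processed signal averaged over spots minus a constant of 11.36 in cKO Sup and 11.51 in control Sup. No source used here gives the origin of these constants. The column medians are -3.00 and -2.97, and 0 sample columns were unmapped.

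Of 62976 spots on each array, 1439 with a control type and 396 named as controls were left out. Spots with a Cy3 outlier flag on either array were dropped, and 20 probes kept under 0.5 of their spots. A probe was detected where at least 0.5 of its clean spots were well above background. Spots were averaged as log2 and each sample was scaled to its median over probes detected in both genotypes. A bound used the higher of the floor and the probe's own signal on the dim array. Symbols were looked up by accession in RefSeq (GRCm38.p6). Probe sequences were not used here.

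Genes with a symbol and a member probe were named, in full at 1.5-fold, and of the unnamed probes brighter than the median the 2 highest and 2 lowest. The members, lists and role groups were chosen with earlier results of these data known. The calculation was tested on simulated data. Alternatives were other scalings, quantile normalisation, normexp (offset 50, limma 3.58.1 under R 4.3.3), no dye normalisation, filters, flags and size rules. Removal of the brightness trend over 1001 probes and counting the spots named as controls were chosen after seeing the data. Other steps used Python 3.11.15, numpy 2.4.6 and pandas 2.3.3.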

Additional observations from a re-analysis of the deposited data

Results flagged for a closer look

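Probes named MM9NEGATIVE, which lie outside the comparison, gave signal in Sup. Of their 44 clean spots, 11 (25.0%) were well above background in cKO and 6 (13.6%) in control, against 0 of 291 spots of the negative control named 3xSLv1 in either genotype. At least 0.5 of the spots were so for 3 of 15 MM9NEGATIVE probes in cKO and 2 of 15 in control.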

How the results depend on the processing

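The counts of 557 probes at least 2-fold higher and 461 lower in cKO stayed within 1.5 times under most of 17 alternatives, with these exceptions. They were 330 and 843 with no scaling, 229 and 83 with normexp, 243 and 131 among probes brighter than the median, 2468 and 2144 at 1.5-fold, and 42 and 70 at 4-fold. The lower count was 280 among probes detected in Sup and IP on both arrays. Removing the brightness trend gave 427 and 339. The normexp setting leaves out the dye normalisation and adds an offset of 50, which draws the differences of dim probes towards 0. The probes detected in cKO only and in control only numbered 1845 and 908 when any bound counted, in place of 102 and 125 at 2-fold. Of 42 named genes, 30 kept their sign in every setting that measured them, 16 below 0 and 14 above, and 12 turned in at least 1. No paired analysis was possible because each genotype had 1 sample, and no sample could be left out. Dim probes near the floor, such as those of Ppara, have the least precision.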

Other observations

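Control spots for abundant transcripts lay outside the members. The Mouse-GAPDH spots stood above 0, at 0.16 ± 0.05 for the set named 3 (SD, n = 10 spots; 7.86 in cKO and 7.71 in control) and at 0.52 ± 0.02 for the set named 5 (SD, n = 10 spots; 5.98 in cKO and 5.46 in control). Gapdh encodes a glycolytic dehydrogenase. The Mouse-PGK1 spots, for a glycolytic kinase, stood at 0.29 ± 0.04 for the set named 3 (SD, n = 10 spots) and -0.06 ± 0.08 for the set named 5 (SD, n = 10 spots). For both genes the difference thus depended on which set was read.

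Spots named as spike-ins had a median of -0.01 over 82 SPINKEIN probes (40 above 0 and 42 below). The median was 0.10 over 7 ERCC probes (6 above and 1 below) and 0.09 over 15 CUST probes (10 above and 5 below). Over the probes measured in both genotypes it was 0.02. Scaling to the ERCC spots lowered the share higher in cKO among members past 2-fold from 54.7% to 38.1%. The labels do not say whether spike-in RNA was added.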
